A study of Mus musculus with 16 samples.

Results

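Conventional type 1 dendritic cells (cDC1) from B16 melanoma infiltrates were described in droplet single-cell RNA sequencing data. A barcode was taken as a cDC1 if it held at least 200 genes, at most 10% mitochondrial counts and at least 2 unique molecular identifiers (UMIs, each standing for a captured transcript) of Xcr1 and Clec9a together. It also had to hold 0 UMIs of Ccr7, Cd3d and Cd3e, at most 1 UMI of Siglech and at most 5 UMIs of C1qa, C1qb and C1qc together. The rule found 981 cells among the 99357 that passed the gene and mitochondrial limits, or 0.987%, out of 116552 barcodes in 8 lanes. Both Xcr1 and Clec9a were seen in 702 of the 981 cells, Xcr1 alone in 162 and Clec9a alone in 117. The cells were thus chosen by their own counts of these genes, whose levels are given as a description and enter no test.

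All cells came from subcutaneous tumours of Bro4.1, a line of the mouse melanoma B16, in C57BL/6J mice that had received 1000000 tumour cells. Tumours were either control or B2m-null; B2m encodes the subunit that MHC class I heavy chains need to reach the surface. Intraperitoneal injections of 100 µg anti-CD40, or of rat IgG2a as isotype control, followed on days 6, 9 and 12, and collection on day 14. By the design text it was the tumour cells that lacked B2m, which is followed here, although the labels of single samples attach the genotype to the mouse. Hashtag antibodies told apart 5 mice with control tumours under isotype (2 pools), 2 with control tumours under CD40 (1 pool on 2 lanes, which the labels call technical replicates), 5 with B2m-null tumours under isotype (2 pools) and 4 with B2m-null tumours under CD40 (2 pools). A mouse stands for 1 hashtag of a matrix: the labels name 3 hashtags for each lane, while 6 of the 8 matrices list 2, so whether a pool held a further mouse is not known. The cells had been enriched on CD45 beads, so a share of cells refers to the enriched suspension and not to the tumour.

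cDC1 depend on the transcription factors Irf8, Batf3 and Id2 and on the growth factor receptor Flt3. They take up dead cells, sense them through receptors such as Clec9a, and load the captured antigen onto MHC class I for CD8 T cells, a route known as cross-presentation that needs Wdfy4. Xcr1 is the receptor of the chemokine Xcl1, which NK cells and CD8 T cells release. Under interferon-gamma, cDC1 are a source of the T cell chemokines Cxcl9 and Cxcl10. CD40, the receptor of CD40L on T cells, drives their maturation, after which they turn on Ccr7 and leave for the lymph node.

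The cDC1 were sparse and unevenly spread over the lanes. There were 254 and 228 cells in control isotype replicates 1 and 2, 12 and 18 in the control CD40 lanes, 238 and 182 in B2m-null isotype replicates 1 and 2, and 27 and 22 in B2m-null CD40 replicates 1 and 2. The hashtags assigned 738 of the 981 cDC1 to a mouse, marked 56 as hashtag doublets and left 187 unassigned, 106 of them in B2m-null isotype replicate 1 and 20 in B2m-null CD40 replicate 1. Lanes held between 46 and 99.3 × 1000000 UMIs, and any pair of lanes shared between 41 and 92 cell barcodes.

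The label was checked on genes the rule did not use. Levels are given in CPM, UMIs scaled to a total of 1000000. Mature dendritic cells were the 1157 barcodes with at least 2 UMIs of Ccr7 and at least 1 of Fscn1. cDC2 were the 241 barcodes with at least 1 UMI each of Flt3 and Cd209a, and 0 of Xcr1, Clec9a and Ccr7. Both sets also met the limits on Cd3d, Cd3e and the C1q genes. Irf8 stood at 1936 CPM over all cDC1, against 824 in mature dendritic cells, 144 in cDC2 and 256 in all other cells. Wdfy4 stood at 842 CPM in cDC1 and at 56.5, 192 and 41.8 CPM in the same 3 sets. Itgae, which encodes the integrin CD103, reached 299 CPM against 16.5, 5.51 and 5.64. The double-stranded RNA sensor Tlr3 reached 197 CPM against 8.47, 0.918 and 10.9. Not every gene of the cDC1 identity list was highest in cDC1. Itgax stood at 73 CPM against 106 in cDC2, Ly75 at 41.7 against 280.3 in mature dendritic cells and Zbtb46 at 67.8 against 81.1 there. Flt3 stood at 189 CPM against 293 in cDC2, but cDC2 were chosen by Flt3, so nothing is read from that difference. Batf3 and Id2 did not set cDC1 apart from mature dendritic cells either, at 239 against 279 CPM and 1790 against 1794 CPM. All 28 genes of the cDC1 identity list were detected in each of the 7 pools, except Plet1, a surface protein, which was at 0 in the control CD40 pool.

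**Figure D1:**
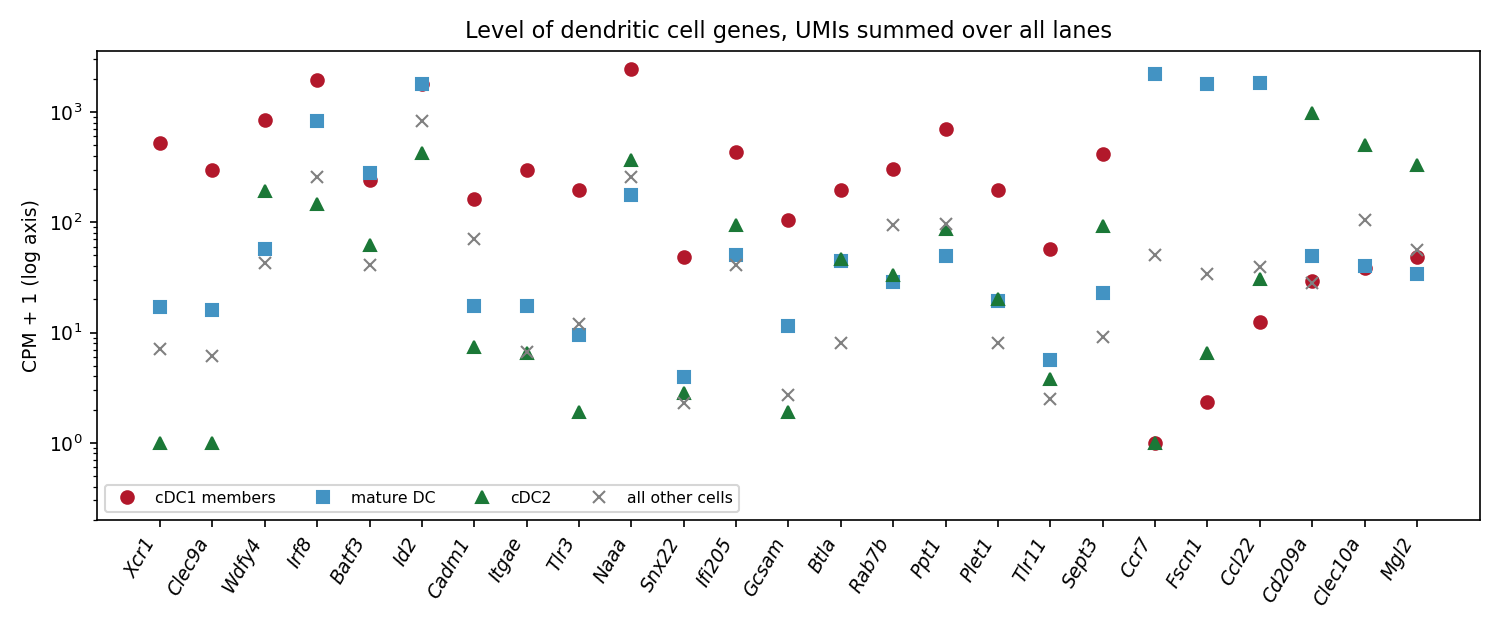
Level of dendritic cell genes in CPM on a log axis, with UMIs summed over all lanes, in cDC1, mature dendritic cells, cDC2 and all other cells, each set by its own marker. Irf8, Wdfy4, Itgae and Tlr3 were highest in cDC1, whereas Batf3 and Id2 lay close to their level in mature dendritic cells. Xcr1, Clec9a, Ccr7, Fscn1 and Cd209a were used to choose the sets.

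Markers of other cells were low in most pools. The T cell list summed to between 19 and 79.7 CPM by pool, with Cd3d and Cd3e at 0 by the rule, the NK cell list to between 72.1 and 432, and the monocyte and macrophage list to between 858 and 2703 CPM. The mature dendritic cell list summed to between 148 and 297 CPM, with Ccr7 at 0 by the rule. The fibroblast and endothelium list summed to between 9.5 and 45 CPM in 6 pools and to 1843 CPM in the control CD40 pool. The B cell list reached 695 CPM in B2m-null isotype replicate 1 against at most 184 in the other pools, and the melanoma list 258.6 CPM there and 239.6 CPM in control isotype replicate 2 against at most 44 elsewhere; their part in the results was not tested. In the control CD40 pool, 1 barcode of mouse 2 held 314 UMIs of Col1a1, Col1a2 and Col3a1 among its 12510 UMIs.

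The lower edge of the rule was gradual. Barcodes with a sum of 1 UMI of Xcr1 and Clec9a, just outside (564 barcodes), had 482 CPM of Wdfy4. Those with a sum of 2, just inside (263 cells), had 778 CPM, and those with a sum of 4 or more (550 cells) had 853 CPM. Among T cell barcodes (at least 2 UMIs of Cd3d and Cd3e), which should lack both genes, 1.5% reached a sum of 2. That share was 4.85% in control isotype and 4% in B2m-null isotype lanes, against 0.365% and 0.302% in the CD40 lanes of the same genotypes. Those barcodes had a median of 14004.5 UMIs and 30.7% of them were hashtag doublets, against 3181 UMIs and 9.46% of all T cell barcodes.

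cDC1 made up a smaller share in every mouse given anti-CD40 than in any mouse given the isotype antibody. Among assigned cells, the share was 1.29, 2.59 and 1.15% in the 3 mice of control isotype replicate 1 and 1.55 and 3.1% in the 2 mice of replicate 2. In the control CD40 mice it was 0.141 and 0.112%. In B2m-null tumours under isotype it was 0.991, 2.87 and 1.86% in replicate 1 and 1.65 and 1.72% in replicate 2. In B2m-null tumours under CD40 it was 0.277 and 0% in replicate 1 and 0.154 and 0.268% in replicate 2. The 0 of 3847 assigned cells sets no bound on that mouse's share, since 20 of the 27 cDC1 of its lane were unassigned. Over all cells of that lane, assigned or not, the share was 0.252%. The treatments did not overlap in either genotype with this assignment of hashtags.

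The mean share in control tumours was 0.126 ± 0.0202% (SD, n = 2) under CD40 and 1.94 ± 0.862% (SD, n = 5) under isotype, 15.3 times lower. An exact two-sided permutation test over mice gave p = 0.0952, the smallest value that 2 against 5 mice allow (0.19 adjusted over 4 comparisons). In B2m-null tumours the means were 0.175 ± 0.129% (SD, n = 4) and 1.82 ± 0.677% (SD, n = 5), 10.4 times lower, with an exact permutation p = 0.0159, again the smallest possible (adjusted, 0.0635). With hashtags assigned by an 80% share the B2m-null difference was 7.2 times (0.226 against 1.63%) with an exact permutation p = 0.0794 (adjusted, 0.178), no longer the smallest possible. A test over both genotypes, added after these had been seen, permuted the labels within a genotype. CD40 mice had 1.73 percentage points fewer cDC1, with an exact permutation p = 0.000756, the smallest of 2646 arrangements (6 against 10 mice). The treatments had already lain apart in both genotypes, so this p was bound to be the smallest possible and adds no support. That test was not repeated with the 80% hashtag share. Mice of a pool shared a lane and a treatment, so these tests treat as independent what the pool may link. With all cells of a pool counted, assigned or not, cDC1 were 16.6 times lower in control and 8.03 times lower in B2m-null tumours. Over pools the shares were 1.77 and 1.53 percentage points lower under CD40 in control and B2m-null tumours, with exact permutation p = 0.667 (1 against 2 pools) and 0.333 (2 against 2), each the smallest that number of pools allows. Between genotypes, no difference beyond the spread was found under isotype (1.82 against 1.94%, exact permutation p = 0.841) or under CD40 (0.175 against 0.126%, exact permutation p = 0.533, with 0.133 the smallest possible).

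**Figure D2:**
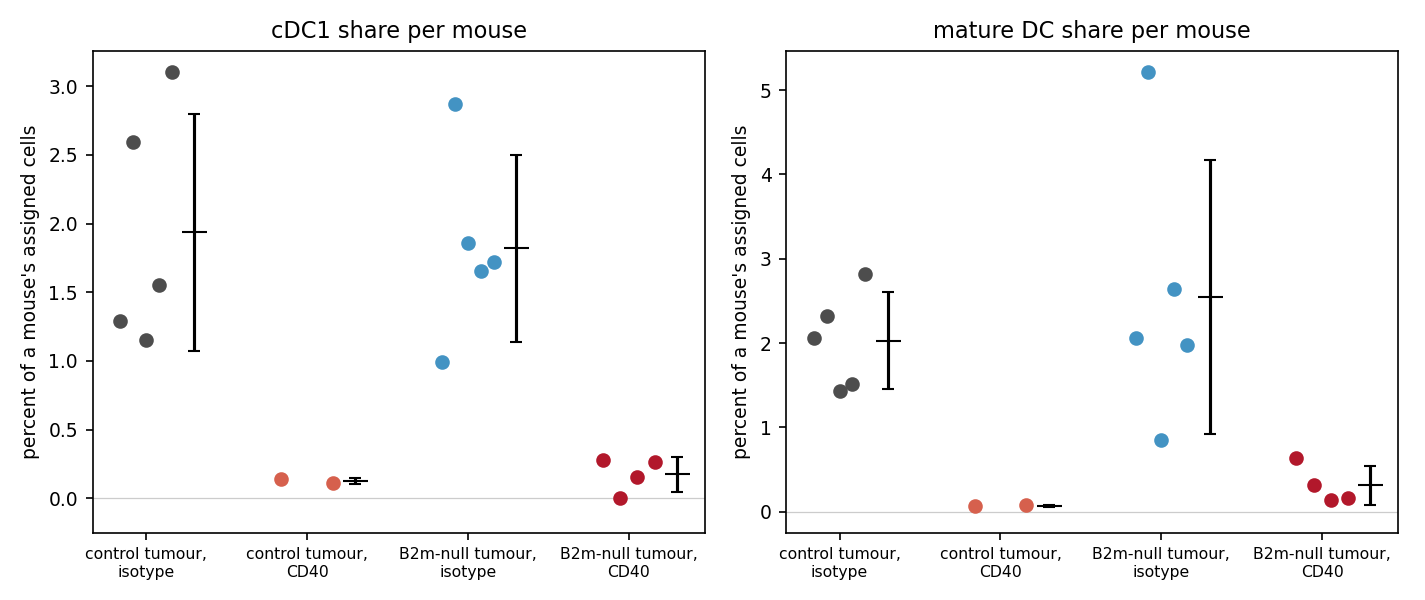
Share of cDC1 and of mature dendritic cells among each mouse's assigned cells in percent; points are mice, bars the mean and SD. cDC1 lay between 0.991 and 3.1% in the 10 isotype mice and between 0 and 0.277% in the 6 CD40 mice.

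Other dendritic cells also made up smaller shares under CD40. Mature dendritic cells were 28.8 times lower in control tumours (0.0705 against 2.03%, exact permutation p = 0.0952) and 8.19 times lower in B2m-null tumours (0.311 against 2.55%, exact permutation p = 0.0159). cDC2 were 21.2 times lower in control tumours (0.0156 against 0.331%) and 19.4 times lower in B2m-null tumours (0.0282 against 0.548%). The exact permutation p-values were the same, 0.0952 and 0.0159. However, the CD40 mice held only 2 and 0 assigned cDC2 in control and 1, 0, 3 and 1 in B2m-null tumours, so these ratios are uncertain. Mature dendritic cells and cDC2 were not thinned to a common depth. Cells lacking Cd3d and Cd3e UMIs were also taken as the denominator, a choice made after seeing the data. cDC1 were then 2.17 and 1.8 percentage points lower in control and B2m-null tumours. As ratios these falls were 10.6 and 7.34 times, smaller than the 15.3 and 10.4 times among all assigned cells. In cells thinned to a common depth, cDC1 were 10.8 times lower in control and 14 times lower in B2m-null tumours. Fewer cDC1 and more of the remaining cells cannot be told apart from shares.

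For genes, UMIs were summed per mouse over assigned cDC1. Mice with at least 10 such cells entered 1 fit of edgeR's quasi-likelihood test over 7152 genes, and adjusted p-values (Benjamini-Hochberg) below 0.05 were called. This left 5 mice with control tumours under isotype, 1 under CD40 (mouse 2, 20 cells), 5 with B2m-null tumours under isotype and 2 under CD40 (10 cells each, both of replicate 2). The lone control CD40 mouse is assumed to vary like the other groups. The test gives no SE, so each SE printed is the size of the log2 change divided by the square root of the test's F statistic. CPM per pool are over all cDC1 of the pool, assigned or not, and "pools" marks the fit with the 7 pools as the unit (9354 genes).

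Under isotype, the cDC1 of B2m-null tumours had lower levels of several interferon-inducible genes than those of control tumours. Cxcl10 (chromosome 5, 92346638 to 92348889, minus strand, mm10), a chemokine that attracts T cells through Cxcr3, stood at 326 and 128 CPM in the 2 control pools and at 26.2 and 32.6 CPM in the 2 B2m-null pools. Its log2 change was -2.68 (SE 0.45, adjusted p = 0.00308 by edgeR; pools 0.065), although the lowest control mouse (43.9 CPM) fell below the highest B2m-null mouse (66.6 CPM). Ly6a (chromosome 15, 74994877 to 74998031, minus strand), which encodes the surface protein Sca-1, stood at 352 and 216 against 105 and 64.6 CPM. Its log2 change was -1.90 (SE 0.28, adjusted p = 0.000713 by edgeR; pools 0.126), and the mice of the genotypes did not overlap.

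The guanylate-binding protein gene Gbp2 stood at 213 and 100.5 against 71.2 and 36 CPM (log2 change -1.73, adjusted p = 0.00555 by edgeR). The immunity-related GTPase gene Iigp1 stood at 147 and 118 against 22.5 and 50 CPM (-1.66, adjusted p = 0.02). Irf1, a transcription factor induced by interferon-gamma, was lower as well, at 123 and 94.5 against 43.1 and 57.3 CPM (-1.03, adjusted p = 0.02). The uridine phosphorylase gene Upp1 stood at 33.9 and 14.3 against 0.937 and 3.94 CPM (-2.91, adjusted p = 0.0262), on 61 against 6 UMIs over mice. The nucleic acid sensor Zbp1 was at 198 and 153 against 106 and 95 CPM (-0.80, adjusted p = 0.0485). In these 5 genes no mouse of one genotype lay within the range of the other. These genes and Ly6a were named because they passed on these same mice, so such separation adds no support. Over all lanes, Cxcl10, Gbp2, Iigp1, Irf1 and Upp1 stood at 398, 300, 165, 130 and 35.7 CPM in all other cells. They stood lower in cDC1, at 128, 118, 96.1, 87.6 and 16.5 CPM, while Zbp1 was at 140 and 141 CPM. The part of other cells' transcripts in these differences was not tested.

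The promoters of 3 interferon-inducible genes that the comparisons turn on are shown as the 250 bases before the RefSeq start of transcription on GRCm38.p6, 5′ to 3′ along the gene. Capitals mark matches, searched on both strands, to a core of the interferon-stimulated response element (ISRE, GAAA, any 2 bases and GAAA).
Cxcl10, chr5:92348890-92349139, minus strand: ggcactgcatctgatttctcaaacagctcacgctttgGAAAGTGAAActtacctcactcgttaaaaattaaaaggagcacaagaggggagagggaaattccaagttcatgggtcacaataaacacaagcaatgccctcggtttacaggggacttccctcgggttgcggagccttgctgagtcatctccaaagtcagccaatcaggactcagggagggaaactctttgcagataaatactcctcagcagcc
Gbp2, chr3:142620413-142620662, plus strand: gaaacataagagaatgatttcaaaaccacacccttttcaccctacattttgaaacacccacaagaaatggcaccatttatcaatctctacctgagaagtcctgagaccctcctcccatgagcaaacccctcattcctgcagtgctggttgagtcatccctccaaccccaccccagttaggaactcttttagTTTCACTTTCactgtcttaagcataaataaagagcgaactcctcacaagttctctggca
Cxcl9, chr5:92328080-92328329, minus strand: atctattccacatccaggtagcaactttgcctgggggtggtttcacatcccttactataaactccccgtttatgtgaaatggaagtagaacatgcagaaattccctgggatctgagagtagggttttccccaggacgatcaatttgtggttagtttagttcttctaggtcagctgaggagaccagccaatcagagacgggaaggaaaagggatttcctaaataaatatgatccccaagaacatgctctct
Cxcl10 held 1 ISRE match, from 213 to 204 bases before the start, and Gbp2 held 1 on the reverse strand, from 59 to 50 bases before it. The Cxcl9 window did not hold the string. Of 27025 genes with such a window in the RefSeq table, 3.46% had a match in at least 1 window. Of the 24 genes of the interferon-gamma list with a window, 12 had a match. So had 2 of 8 named genes lower and 1 of 8 higher in B2m-null tumours under isotype. Irf1 was searched as well and held no ISRE match. A second interferon motif searched was GAS (TTC, any 3 bases and GAA). It matched in 8.13% of all genes with a window, in Irf1 and in none of the windows shown. A match is a description of the letters and shows no binding.

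Over all genes tested, 23 passed between genotypes under isotype (0.322%), 10 higher (0.14%) and 13 lower (0.182%) in B2m-null tumours, or 15 higher and 11 lower with relative log expression scaling. Of 29 tested genes of the interferon-gamma list, 0 were higher and 5 lower, 24 log2 changes lay below 0 and their median was -0.68, where the median over all genes lay within rounding of 0. Of 29 genes of the type I interferon list, 1 was lower (Zbp1), 24 lay below 0 and the median was -0.54. Cxcl9, also of the interferon-gamma list, did not pass, at 522 and 344 against 90.9 and 175 CPM (-1.40, adjusted p = 0.056 by edgeR). The ubiquitin-like Isg15 did not pass either, at 242 and 194 against 124 and 58.5 CPM (-1.34, adjusted p = 0.0688).

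The MHC class I genes H2-K1 and H2-D1 were lower by a smaller amount, and neither passed with pools as the unit. H2-K1 stood at 1979 and 1608 CPM in control and 1462 and 1118 CPM in B2m-null pools (log2 change -0.50, SE 0.11, adjusted p = 0.0422 by edgeR). H2-D1 stood at 1719 and 1509 against 1135 and 1096 CPM (-0.55, adjusted p = 0.0129). Both encode classical class I heavy chains, and they were the 2 genes that passed of 22 in the MHC class I and peptide loading list, of which 21 lay below 0 with a median of -0.39. B2m, at 2110 and 1875 against 1694 and 1370 CPM, did not pass (-0.38, adjusted p = 0.189). A 3′ tag outside a disrupted stretch would still be counted, so these B2m counts do not check a genotype.

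Of the 10 genes higher in B2m-null tumours, Thbs1, which encodes the matrix protein thrombospondin-1, had the largest change, at 227 and 251 against 117 and 121 CPM (log2 change 1.26, SE 0.22, adjusted p = 0.00437 by edgeR). Of the 10, 7 encode ribosomal proteins, among them Rpl37a at 2854 and 2620 against 1485 and 1820 CPM (0.79, adjusted p = 0.000455). Txn1, the redox protein thioredoxin, was lower, at 1185 and 1272 against 2188 and 1907 CPM (-0.88, adjusted p = 0.00307).

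All 23 genes kept their direction with pools as the unit, but 0 passed (edgeR, 549 at an unadjusted p under 0.05). In the same fit without hashtag doublets, a choice made after seeing the data, 20 genes passed, 8 of the 23 among them. Without control isotype replicate 1 the mouse fit called 16 genes, of which 3 were among the 23: Ly6a, Cxcl10 and Thbs1. There Irf1 was at -0.75 (adjusted p = 0.455), Upp1 at -1.62 and H2-K1 at -0.34 (adjusted p = 0.851). Without B2m-null isotype replicate 1, 20 genes passed, 17 higher and 3 lower, 12 of the 23 among them. There none of Cxcl10, Gbp2, Iigp1, Irf1, Upp1 and Zbp1 passed, at -2.76, -1.70, -1.16, -0.86, -2.73 and -0.84 (adjusted p from 0.0522 to 0.188 by edgeR). Without B2m-null isotype replicate 2, 131 genes passed, 33 higher and 98 lower, 14 of the 23 among them, with Cxcl10 at -2.50 (adjusted p = 0.0636). Ly6a and Thbs1 passed in each of these mouse fits with a replicate left out.

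**Figure D3:**
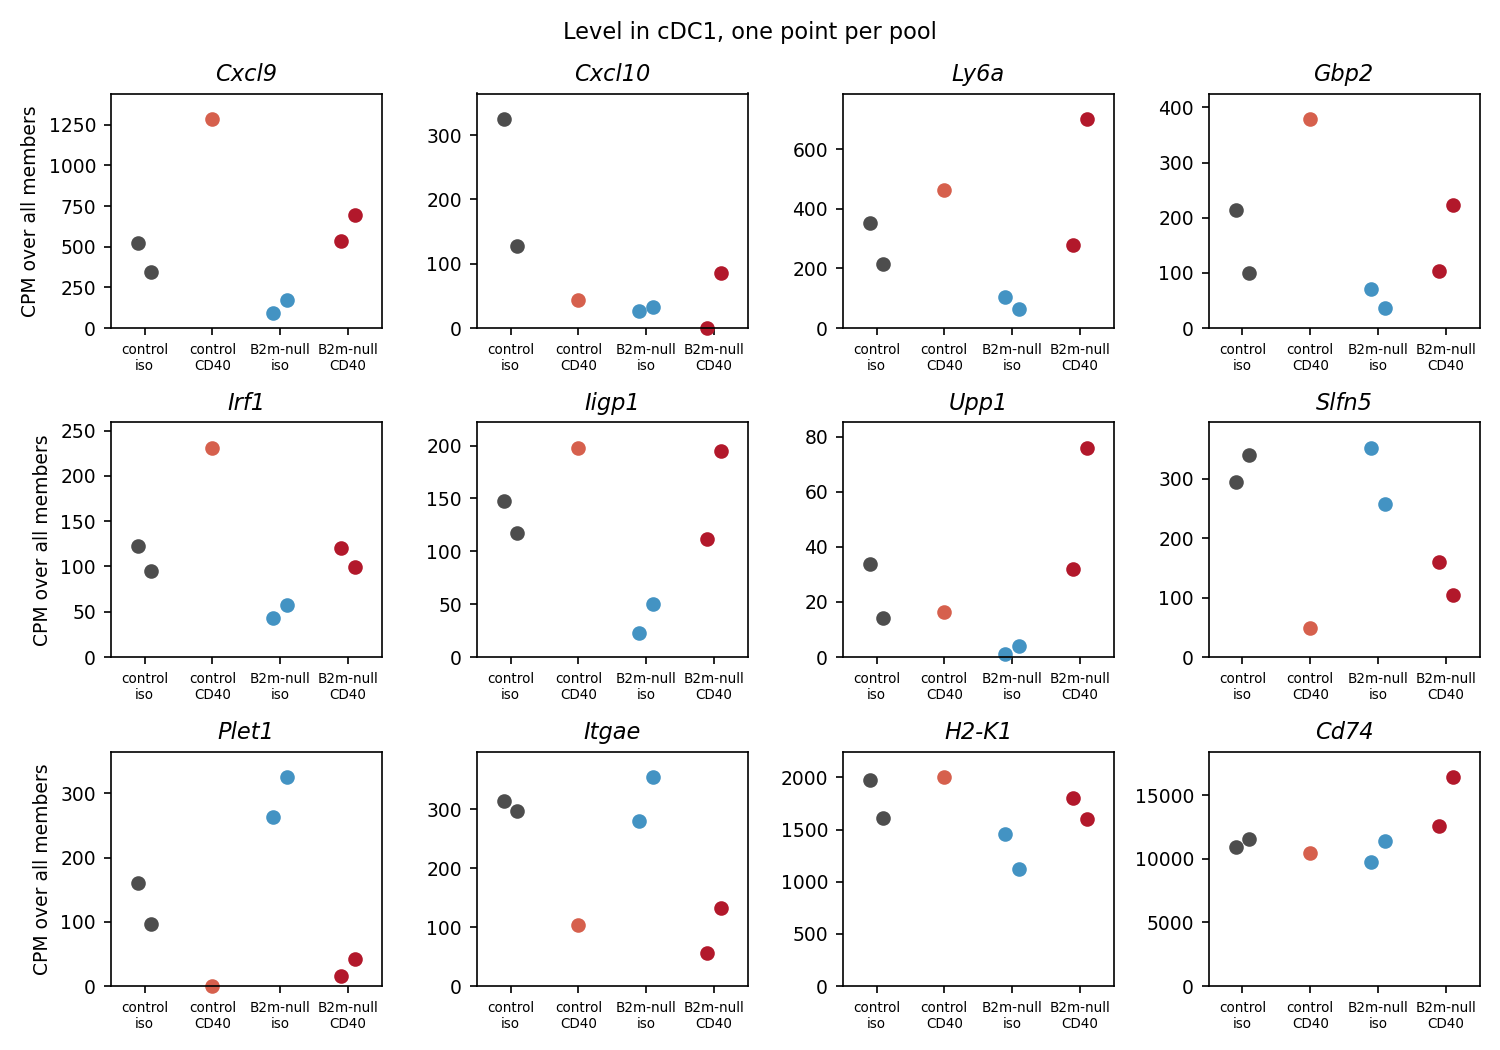
Level of selected genes in cDC1 in CPM (linear axes from 0), with 1 point per pool; the control CD40 point joins 2 lanes of 1 pool. Cxcl10, Ly6a, Gbp2 and Irf1 were lower in both B2m-null isotype pools than in both control isotype pools, and Plet1 was lower in each CD40 pool than in any isotype pool.

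In the fit over mice, cDC1 of B2m-null tumours had more of several interferon-inducible genes under CD40. Some MHC class II genes and the immunoproteasome genes Psmb8 and Psmb10 were higher too. Ly6a rose from 105 and 64.6 to 280.3 and 703 CPM (log2 change 3.72, SE 0.35, adjusted p = 2.82e-07 by edgeR; pools 0.00588). Cxcl9 rose from 90.9 and 175 to 537 and 694 CPM (2.68, SE 0.45, adjusted p = 0.00177; pools 0.00588). The 2 CD40 mice of the fit came from B2m-null CD40 replicate 2, the pool with the highest sums of the cDC2 list (1131 CPM, against at most 719 in the other pools), the monocyte and macrophage list (2703 CPM) and the NK cell list (432 CPM); the part of these cells' transcripts in the changes was not tested. For Ly6a and Cxcl9 every CD40 mouse and pool lay above every isotype mouse and pool. Both were named for passing on these mice, so this adds no support. With the C1q limit at 1 UMI, Cxcl9 did not pass, nor did it when a hashtag was assigned by an 80% share. This comparison shares the 5 B2m-null isotype mice with the one between genotypes, so a low level in them enters both.

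Gbp2 rose from 71.2 and 36 to 104 and 223 CPM (log2 change 2.67, adjusted p = 0.00352 by edgeR; pools 0.174). Iigp1 rose from 22.5 and 50 to 112 and 195 CPM (2.40, adjusted p = 0.032; pools 0.0323) and Upp1 from 0.937 and 3.94 to 32 and 76 CPM (4.71, adjusted p = 0.00398; pools 0.0301). Axl, a receptor kinase for dead-cell uptake, rose from 10.3 and 10.1 to 48.1 and 61.8 CPM (2.97, adjusted p = 0.0121; pools 0.0301), on 20 UMIs over the isotype and 13 over the CD40 mice. Irf1 and Cxcl10 did not pass, at 120.1 and 99.8 and 0 and 85.5 CPM under CD40 (log2 changes 1.13 and 1.65, adjusted p = 0.19 for Irf1 by edgeR). Without B2m-null isotype replicate 1, Iigp1 was at 1.91 (adjusted p = 0.057). When a hashtag was assigned by an 80% share, Iigp1 was at -0.39 and 5 genes in all passed, among which 4 of the genes called here.

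Of 29 tested genes of the interferon-gamma list, 4 rose and 0 fell, 22 lay above 0 and the median was 0.96, against -0.12 over all genes. Of the MHC class II list 4 of 11 rose, where 0.671% of all 7152 tested genes did. The invariant chain Cd74 went from 9728 and 11370 to 12550 and 16460 CPM (log2 change 0.76, SE 0.13, adjusted p = 0.00229 by edgeR; pools 0.298) and H2-Eb1 from 4115 and 5527 to 5454 and 7663 CPM (0.76, adjusted p = 0.0121; pools 0.372). H2-Ab1 (0.54, adjusted p = 0.0331; pools 0.4) and the peptide-exchange factor H2-DMb1 (0.88, adjusted p = 0.0254; pools 0.249) were the other two. Without B2m-null isotype replicate 1, Cd74 passed but H2-Eb1 was at 0.47 (adjusted p = 0.125), H2-Ab1 at 0.39 (adjusted p = 0.153) and H2-DMb1 at 0.62 (adjusted p = 0.149).

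When a hashtag was assigned by an 80% share, 3 of the 4 turned: Cd74 was at -0.14, H2-Eb1 at -0.25 and H2-Ab1 at -0.19.

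From the MHC class I list the immunoproteasome subunits Psmb8 (584 and 999 to 1338 and 1497 CPM, log2 change 1.03, adjusted p = 0.0191 by edgeR; pools 0.197) and Psmb10 (0.99, adjusted p = 0.0377; pools 0.197) and the proteasome activator Psme2 (0.84, adjusted p = 0.0473; pools 0.437) rose. Psme2 also missed the threshold without control isotype replicates 1 or 2 (adjusted p = 0.0536 and 0.0503). None of the 3 passed without B2m-null isotype replicate 1 (Psmb8 0.61, adjusted p = 0.0682). The list had 19 of 22 genes above 0 and a median of 0.34. The type I interferon list had 0 of 29 genes past the threshold, 13 above 0 and a median of -0.09. Of the glycolysis and hypoxia list 2 of 22 rose, triosephosphate isomerase Tpi1 (1.44, adjusted p = 0.00115; pools 0.243) and lactate dehydrogenase Ldha (0.72, adjusted p = 0.045; pools 0.373). Ldha did not pass without B2m-null isotype replicate 1 (0.63, adjusted p = 0.153) or control isotype replicate 1 (adjusted p = 0.0536), and was at -0.083 with the 80% hashtag share.

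Genes that fell under CD40 in B2m-null tumours included Plet1, from 263 and 326 to 16 and 42.8 CPM (log2 change -2.45, SE 0.60, adjusted p = 0.0412 by edgeR; pools -3.14, 0.00588). Without B2m-null isotype replicate 2 it was at -2.15 (adjusted p = 0.0779). In control tumours Plet1 stood at 160.3 and 96.9 CPM under isotype and had 0 UMIs under CD40, at least 4.92 times lower if 3 counts are put in place of the group's 0 (adjusted p = 0.107 by edgeR; pools 0.0402). Flt3, the receptor of the growth factor that sustains dendritic cells, fell from 222 and 215 to 128 and 80.8 CPM (-1.60, adjusted p = 0.0254; pools 0.171). Its change was about as large without B2m-null isotype replicate 1 but did not pass (-1.53, adjusted p = 0.0961). March1, a ubiquitin ligase that removes MHC class II from the surface, fell from 198 and 169 to 80.1 and 47.5 CPM (-1.72, adjusted p = 0.033; pools 0.0341). It missed the threshold without B2m-null isotype replicate 1 (-1.73, adjusted p = 0.0797) and without control isotype replicate 1 (-1.69, adjusted p = 0.0524).

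Klf2, a transcription factor of quiescence and migration, fell in the mouse fit, from between 257 and 433 CPM to 145 and 159.7 CPM in the 2 mice of replicate 2 (log2 change -1.32, adjusted p = 0.0191 by edgeR; pools 0.435). In the pool of replicate 1, which the fit did not hold, it stood at 400.5 CPM. Thbs1 had 0 UMIs in both mice, against 453 over the isotype mice. It stood at 8.01 and 218 CPM in the whole CD40 pools, whose cells include those not assigned to a mouse. Thbs1 UMIs were found in 17.6% of the B2m-null isotype cDC1 and in 4.08% of the B2m-null CD40 cDC1. With so few cells holding the gene, the 0 UMIs set no bound on its level.

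In all, 68 genes passed for CD40 in B2m-null tumours (0.951%), 48 higher (0.671%) and 20 lower (0.28%), or 87 higher and 20 lower with relative log expression scaling. The balance turned with no filter on low counts (66 higher and 117 lower) and in pools without hashtag doublets (24 higher and 33 lower). With pools as the unit 29 passed (0.31%), 17 higher (0.182%) and 12 lower (0.128%); 21 of the 68 were among them and all 68 kept their direction. With the C1q limit at 1 UMI, 17 of the 68 passed. When hashtags were assigned by the alternative share rule, only 50 of the 68 kept their direction and 4 passed. Without B2m-null isotype replicate 1 the count was 39, and without B2m-null isotype replicate 2 it was 299.

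**Figure D4:**
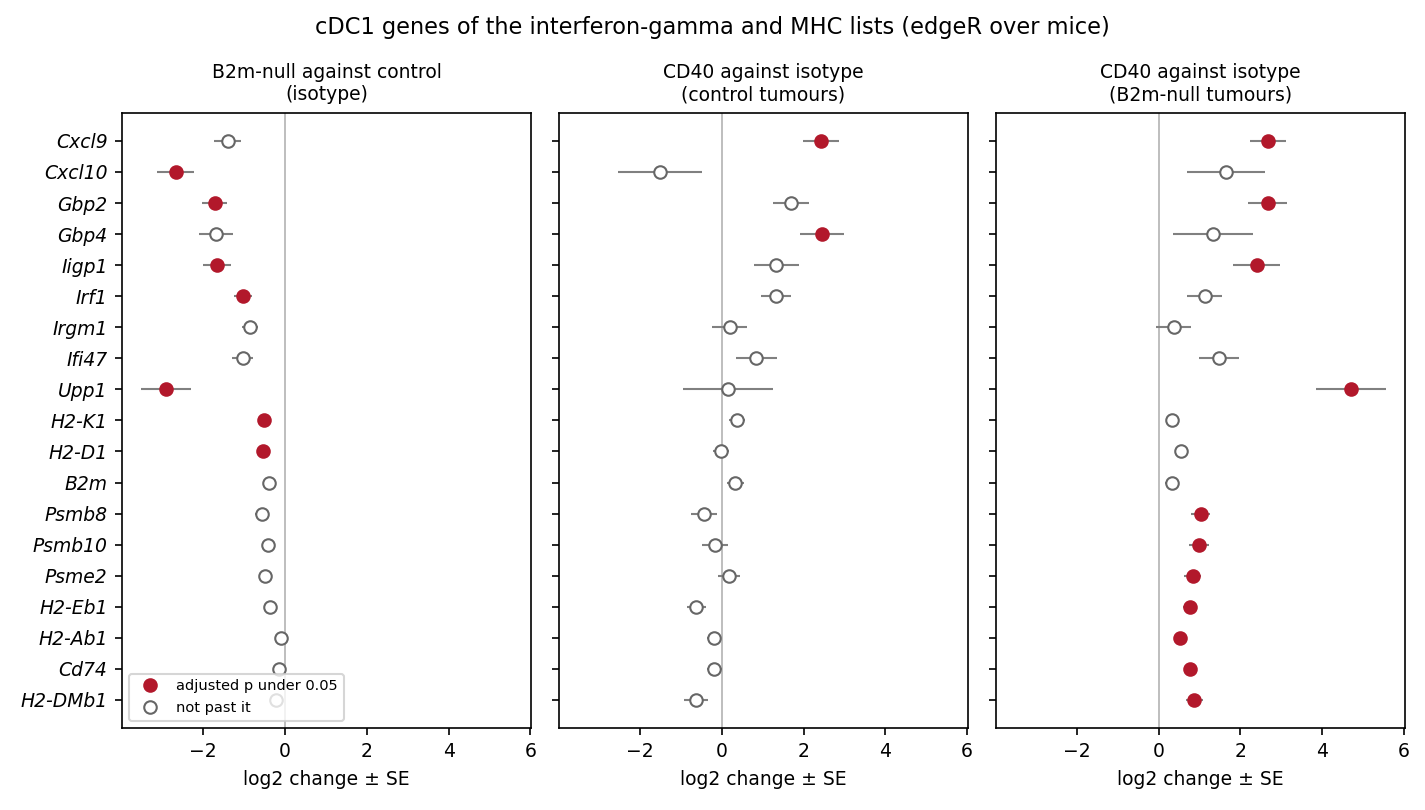
Log2 change (edgeR over mice) of genes of the interferon-gamma, MHC class I and MHC class II lists in 3 comparisons, with an SE worked back from the F statistic. Filled points had an adjusted p under 0.05. Points lie mostly below 0 between genotypes under isotype and mostly above 0 for CD40 in B2m-null tumours; Cxcl9 for CD40 in control tumours, at 2.43, was at 0.99 without collagen-rich barcodes.

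In control tumours, most genes of the type I interferon list had log2 changes below 0 under CD40, and 1 passed. Of its 29 tested genes 27 lay below 0, with a median of -1.46, or -1.08 with the 7 genes at 0 UMIs under CD40 set at their bound, against -0.08 over all genes. With pools as the unit 31 of 32 lay below 0. Slfn5, a Schlafen family gene, fell from 294 and 341 to 49.5 CPM (-2.59, SE 0.53, adjusted p = 0.00814 by edgeR; pools 0.0101). The antiviral genes Ifit2 and Rsad2 had 170 and 154 UMIs over the isotype mice and 0 in the CD40 mouse, at least 2.4 and 2.17 times lower, and did not pass (adjusted p = 0.353 and 0.4). For the difference of the CD40 effects between genotypes, 27 of the 29 genes lay above 0 (more positive in B2m-null tumours) and 0 passed.

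The heat shock genes Hspa1a and Hspa1b rose. Hspa1a went from 37 and 45.2 to 336 CPM (log2 change 2.86, adjusted p = 0.0311 by edgeR; pools 0.0466) and Hspa1b from 32.7 and 29.1 to 369 CPM (3.03, adjusted p = 0.0449; pools 0.00549). Both encode inducible Hsp70 and are near-identical neighbours, so their counts are uncertain one against the other. They were the 2 that passed of 26 genes in the heat shock and early response list, of which 13 lay above 0. Without control CD40 replicate 1 their adjusted p-values were 0.107 and 0.188, and without control isotype replicate 1 0.0597 and 0.0636. Hspa1b did not pass without control isotype replicate 2 either (adjusted p = 0.0635).

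Itgae fell from 314 and 297 to 104 CPM (log2 change -2.24, SE 0.45, adjusted p = 0.00657 by edgeR), but did not pass with pools as the unit (-1.53, adjusted p = 0.206). In B2m-null tumours it stood at 281 and 356 CPM under isotype and 56.1 and 133 under CD40 (-1.13, adjusted p = 0.0642; pools 0.0393). Klrk1, which encodes the receptor NKG2D (-2.08, adjusted p = 0.0186; pools 0.389), and the septin gene Sept3 of the identity list (-1.94, adjusted p = 0.00273; pools 0.242) fell as well. Neither passed without control CD40 replicate 1 (adjusted p = 0.0941 and 0.0524), and Klrk1 did not pass without control isotype replicate 2 (adjusted p = 0.0635).

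Cxcl9 passed in control tumours, from 522 and 344 to 1288 CPM (log2 change 2.43, SE 0.45, adjusted p = 0.00273 by edgeR; pools 0.0781). However, 135 of the 202 Cxcl9 UMIs of the CD40 mouse lay in the 1 barcode with 314 collagen UMIs. Without barcodes holding 5 or more collagen UMIs, an alternative added after the data were seen, the change was 0.99 (adjusted p = 0.615). Gbp4, which had passed at 2.46 (adjusted p = 0.0183), was then at -1.59. These were the 2 genes of the interferon-gamma list that passed, of 29 with a median of 0.31.

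The 10 largest rises in control tumours were matrix and secreted-protein genes such as Col1a2, at 6.78 and 0.595 CPM under isotype and 693 under CD40, and Serping1, with 0 UMIs under isotype and 38 in the CD40 mouse. In all 53 genes passed (0.741%), 45 higher (0.629%) and 8 lower (0.112%). Without collagen-rich barcodes 30 passed, 18 higher and 12 lower, and without control CD40 replicate 1, the lane that held that barcode, 22. Leaving out B2m-null isotype replicate 1 gave 52 higher and 21 lower calls. With pools as the unit 28 passed (0.299%), 24 higher (0.257%) and 4 lower (0.0428%).

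**Figure D5:**
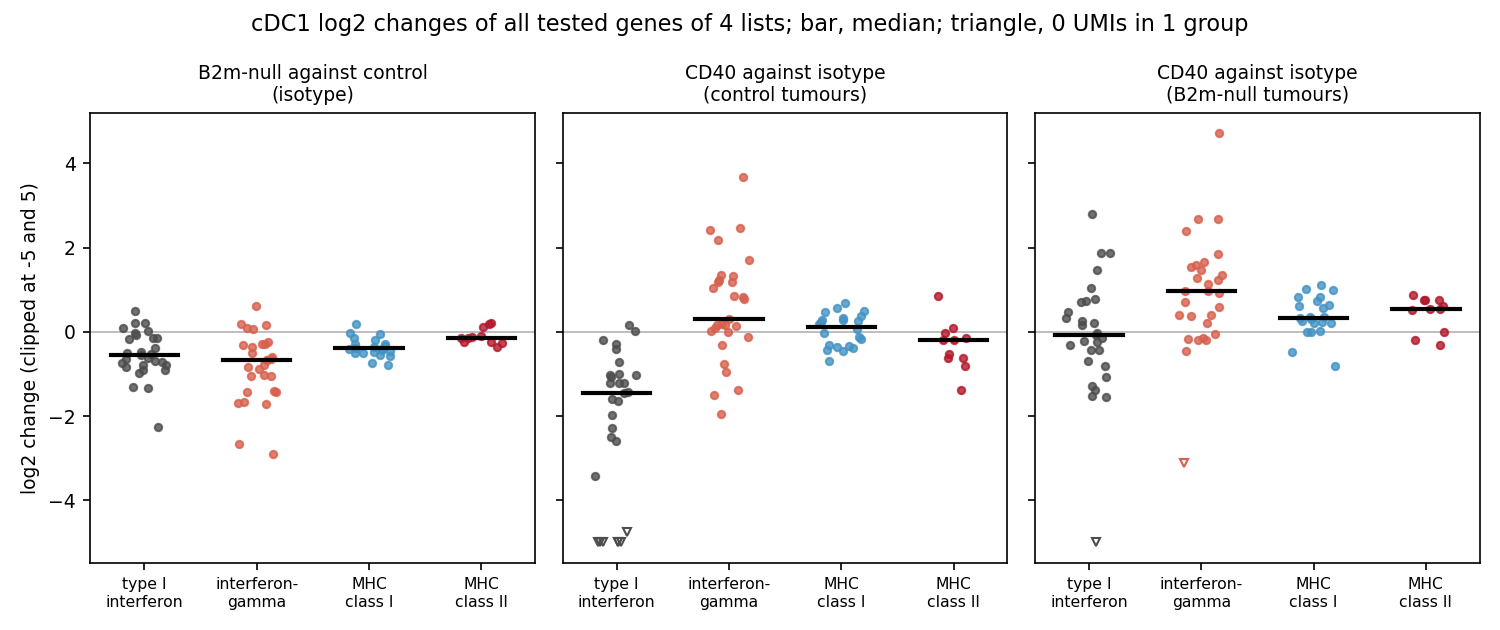
Log2 changes of the tested genes of gene lists in 3 comparisons, with bars at the medians and open triangles for genes with 0 UMIs in 1 group. The type I interferon list has its median at -1.46 for CD40 in control tumours and at -0.09 in B2m-null tumours.

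Gm42418 (chromosome 17, 39846958 to 39848788, plus strand), a non-coding gene at a ribosomal RNA repeat, fell under CD40 in both genotypes. It stood at 6809 and 8481 CPM in control isotype and 1689 in control CD40 (log2 change -2.47, adjusted p = 0.000516 by edgeR; pools 0.000248). In B2m-null tumours it went from 7639 and 7145 to 2002 and 1976 CPM (-2.16, adjusted p = 0.00023; pools 0.000247). No CD40 pool came within the range of the isotype pools for Gm42418, which was named because it passed. AY036118 overlaps it on the opposite strand, so the counts of the pair are uncertain. The part of this difference in the other results was not tested.

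The response to CD40 was compared between genotypes by the difference of the 2 log2 changes (B2m-null minus control). Its control CD40 arm is the 1 mouse with 20 cells, whose own variation was not measured and is assumed to be that of the other groups. It passed for 46 genes (0.643%), 24 above 0 (0.336%) and 22 below (0.308%). Of the MHC class II list 4 of 11 passed, all above 0: H2-Eb1 had changed by 0.76 in B2m-null and -0.62 in control tumours, a difference of 1.39 (SE 0.28, adjusted p = 0.0165 by edgeR), and Cd74, H2-Aa and H2-DMb1 differed by 0.95, 1.06 and 1.51 (adjusted p = 0.0471, 0.0424 and 0.0471). Tpi1 (2.36, adjusted p = 0.00799), Ldha (1.56, adjusted p = 0.0195), the lysosomal thiol reductase Ifi30 (1.33, adjusted p = 0.0424) and Ly6a (2.30, adjusted p = 0.0471) also lay above 0. Klf2 (-2.14, adjusted p = 0.00799) and Rpl37a (-2.003, adjusted p = 3.13e-05) lay below, as did Hspa1a and Hspa1b, whose fitted values depend on the prior count because the B2m-null CD40 mice held no UMI of either.

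With pools as the unit, edgeR called 0 genes for this difference (889 at an unadjusted p under 0.05). Without control isotype replicate 1 the mouse fit called 21, with Ly6a at 1.96 (adjusted p = 0.142) and Cd74 at 0.98 (adjusted p = 0.109). Ldha (1.46, adjusted p = 0.0795), Ifi30 (1.18, adjusted p = 0.143), H2-Aa (1.15, adjusted p = 0.0702) and H2-DMb1 (1.61, adjusted p = 0.0744) did not pass there either. Without control CD40 replicate 1, Ldha, Ifi30, H2-Aa and Cd74 missed the threshold (adjusted p = 0.0555, 0.0954, 0.0522 and 0.0522). Without control isotype replicate 2, H2-Aa, H2-DMb1 and Cd74 did (adjusted p = 0.0796, 0.0837 and 0.0911), and without B2m-null isotype replicate 1, H2-DMb1 and Cd74 did (adjusted p = 0.066 and 0.0521). H2-Eb1, Tpi1, Klf2 and Rpl37a passed in each of these mouse fits with a replicate left out. Ly6a did not pass without B2m-null isotype replicate 1 or 2 either (adjusted p = 0.086 and 0.0611). Without control isotype replicate 2 the fit called 30 genes, and without B2m-null isotype replicate 2, 153. Without collagen-rich barcodes H2-Eb1 and Ly6a passed. Cd74, H2-Aa, H2-DMb1 and Ifi30 then missed the threshold at differences of 0.87, 0.94, 1.43 and 1.21, close to those with these barcodes (adjusted p = 0.0835, 0.0792, 0.0745 and 0.0739).

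Between genotypes under CD40, 21 genes passed (0.294%), 3 higher in B2m-null tumours (0.0419%; Tpi1, Ifi30 and mt-Atp6) and 18 lower (0.252%), or 7 higher and 19 lower with relative log expression scaling. The cell filter limits mitochondrial UMIs, mt-Atp6 among them, so nothing is read from that gene. The 9 largest falls were matrix and secreted-protein genes. In the control CD40 pool, 1 collagen-rich barcode held 314 of the 335 UMIs of the fibroblast and endothelium list. Only 10 of the 21 genes were still tested once collagen-rich barcodes were left out. Without collagen-rich barcodes 8 genes passed, Klf2 among them (-1.98, adjusted p = 0.0304) but not Tpi1 (1.81, adjusted p = 0.104, against 1.95 with them) or Ifi30 (1.20, adjusted p = 0.114, against 1.32). Without control CD40 replicate 1 the count was 9, with Tpi1 and Ifi30 at 1.83 and 1.21 and not past the threshold. Leaving out B2m-null isotype replicate 1 gave 51 genes (25 higher and 26 lower) and leaving out B2m-null isotype replicate 2 gave 59 (26 higher and 33 lower). With pools as the unit 6 passed, all lower (0.0641%).

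Among the named genes of the cDC1 identity list, Itgae and Sept3 fell under CD40 in control tumours, and Plet1 and Flt3 in B2m-null tumours. Wdfy4 stood at 776 and 867 CPM in control isotype, 704 in control CD40, 824 and 929 in B2m-null isotype and 913 and 608 in B2m-null CD40, and passed in none of the 5 comparisons (lowest adjusted p 0.348 by edgeR). Irf8 stood between 1554 and 2179 CPM in the 7 pools and did not pass either (lowest adjusted p 0.202). Xcr1 and Clec9a, which chose the cells, stood between 361 and 615 and between 216 and 368 CPM. Of 27 tested genes of the list of growth factor receptors and transcription factors, Flt3 was the 1 that passed in a comparison of CD40 with isotype. Of 19 genes of the cross-presentation and dead-cell uptake list, Axl and the NADPH oxidase subunit Cyba (0.74, adjusted p = 0.0262; without B2m-null isotype replicate 1, 0.126) rose under CD40 in B2m-null tumours, and 0 passed in control tumours under CD40 or between genotypes under isotype.

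Cd40, the target of the antibody, stood at 49.3 and 36.9 CPM in control isotype, 38.5 in control CD40, 19.7 and 28.7 in B2m-null isotype and 48.1 and 33.3 in B2m-null CD40, and passed in no comparison (lowest adjusted p 0.737 by edgeR). It rested on 4 and 6 UMIs in the CD40 mice of control and B2m-null tumours, so a change could have been missed. How large a change of Cd40 would be found was not tested. Of 25 genes of the CD40 and NF-kB signalling list, 1 rose in B2m-null tumours under CD40, the survival gene Bcl2a1b (116 and 212 to 424 and 451 CPM, 1.60, adjusted p = 0.0191; without B2m-null isotype replicate 1, 0.126), and 0 passed in control tumours. Bcl2a1b has near-identical paralogs, so its count is uncertain. Of 12 tested genes of the costimulation and maturation list 0 passed in either genotype; the costimulatory Cd86 stood at 183 and 189.7 against 60.5 CPM in control tumours (-1.85, adjusted p = 0.0832). Since Ccr7 had to be 0, these lists describe cDC1 that had not turned it on. Il12b, a subunit of the cytokine IL-12, lay between 0 and 16 CPM in the 7 pools and was not tested.

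Among single cDC1 of the isotype lanes (858 cells, thinned to 2000 UMIs each), the ratio of variance to mean was used as a measure of spread; purely Poisson counts would give a ratio of 1. Taking for each of 2379 genes the lane where it was lowest, the median ratio was 0.949. Chemokines were among the 15 most dispersed genes, with ratios of 6.94 for Cxcl2, 4.72 for Cxcl9, 3.72 for Ccl2 and 3.36 for Ccl4. Gm42418 was the most dispersed (35.7), and Cst3 (5.97), the myeloid lysozyme Lyz2 (4.96), the interferon-inducible Ifitm1 (4.29) and Ifitm3 (3.41) and Hmgb2 (3.62), which cycling cells express, were among the 15. Of the 29 tested genes of the cell cycle list, 0 passed between genotypes under isotype or for CD40 in control tumours, and 1 fell for CD40 in B2m-null tumours. This was Hist1h1b, a linker histone made in S phase, which stood at 90.9 and 152 CPM under isotype and 32 and 33.3 CPM under CD40 (-3.36, SE 0.74, adjusted p = 0.0191 by edgeR). It rested on 2 UMIs in the 2 CD40 mice against 270 over the isotype mice, 11.1 times lower with a 95% counting interval of 3.05 to 92.5. That interval leaves out the spread between mice and between cells. Hist1h1b passed with each replicate left out that could be, but not with pools as the unit (-1.87, adjusted p = 0.131), the 80% hashtag share, the C1q limit at 1, thinned cells or DESeq2. Mki67 or Top2a UMIs were found in 29.2% of the thinned B2m-null CD40 cDC1 and 29.8% of the thinned B2m-null isotype cDC1.

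Whether cDC1 differed from mature dendritic cells in their change under CD40 was tested in the same mice. In control tumours the CD40 arm was 1 mouse, the one with the barcode of 314 collagen UMIs, and the comparison was not repeated without that barcode. There 13 of 7924 genes passed, 12 of them matrix or stromal genes, and with 1 mouse nothing is read from them. In B2m-null tumours no CD40 mouse had 10 cells of both sets. With at least 5 cells (3 CD40 against 5 isotype mice), 6 of 7260 genes passed. Those with the largest differences (cDC1 minus mature) were the immunoglobulin genes Igkc (-6.95, adjusted p = 0.00363 by edgeR) and Ighm (-3.40, adjusted p = 0.0122), which B and plasma cells express. The others were Serpinb6b (2.38), Lgals3 (1.92), Irf8 (-1.13, adjusted p = 0.0228) and Cst3 (0.67, adjusted p = 0.0228). cDC2 were too few for a fit.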

How the data were processed

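CD45-enriched cells of B16 Bro4.1 tumours were profiled by 10x 3′ v3 sequencing with hashtag antibodies. The deposited matrices hold UMI counts per gene and barcode. Cell Ranger 3.0.0, bcl2fastq 2.20.0.422 and mm10 are named in the submitters' processing notes. Which filters preceded deposit is not stated there.

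Hashtags were called from their counts: a doublet had 2 hashtags 2.5 SD above background, and an assignment needed 20 counts and a posterior of 0.9. An alternative rule, assignment by an 80% share, was applied to counts above each hashtag's background. Other cell doublets were not called. UMIs of at least 10 cDC1 per mouse were summed and fitted with edgeR 4.0.16 in R 4.3.3 (TMM scaling, filterByExpr, quasi-likelihood test, all groups in 1 fit, 7152 genes, rule genes left out of counts); DESeq2 1.42.0 was an alternative. Mitochondrial genes, whose summed share the cell filter limits, were kept in the counts. Summed cDC1 UMIs per mouse ran from 64643 to 902156. Shares were tested by exact permutation over mice (scipy 1.17.1). On simulated data over 7157 genes, 4-fold changes were recovered for 33% (CD40, control), 56% (CD40, B2m-null) and 93% (genotype, isotype) of changed genes, and 2-fold changes for 5, 14 and 68%.

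Named genes are the 10 largest rises and falls at an adjusted p under 0.05 with at least 30 UMIs, list genes at that threshold, up to 4 examples per list, and Xcr1, Clec9a, Wdfy4, Irf8, B2m and Cd40; Rsad2, Cd86, Il12b and genes named for their pool values outside this rule were chosen after their values were seen. Of the listed genes 5 had no matching symbol. Promoter windows come from RefSeq on GRCm38.p6. The cells and lists were chosen with earlier results of these data known. Alternatives varied the scaling, the filters, the thresholds of the cDC1 rule, the unit and the replicates.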

Additional observations from a re-analysis of the deposited data

Results flagged for a closer look

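In 5 of 99 checks over 48 genes, 1 mouse lay apart from the other 4 of its group by Dixon's criterion, which chance meets in about 1 of 20 checks. Under isotype in B2m-null tumours these were a mouse at 39.8 CPM of Cd40, a mouse at 18500 CPM of Gm42418 and a mouse at 257.1 CPM of Klf2. Under isotype in control tumours they were a mouse at 438.8 CPM of Psme2 and a mouse at 327.4 CPM of Tpi1.

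The change under CD40 differed between B2m-null and control tumours for 46 genes by edgeR's test of the difference (B2m-null minus control, log2, adjusted p under 0.05), of which 0 passed with pools as the unit. Of the 11 tested MHC class II genes 9 lay above 0 and 2 below, and of the 22 MHC class I genes 15 and 7. Among the 46 genes, H2-DMb1 at 1.51, H2-Eb1 at 1.39, Ifi30 at 1.33, H2-Aa at 1.06 and Cd74 at 0.95 lay above 0. So did Ly6a at 2.30, the proteasome subunit Psmb2 at 2.51, Klrk1 at 2.52, the glycolytic genes Tpi1 at 2.36 and Ldha at 1.56, and AY036118, which overlaps Gm42418, at 3.96. Below 0 lay Bola2 at -2.49, the respiratory chain subunit Uqcr11 at -2.22, Klf2 at -2.14 and Rpl37a at -2.003. The fitted values of Hspa1a (-10.62) and Hspa1b (-10.07) also lay below 0, but both genes had 0 UMIs in the B2m-null CD40 mice, so their size depends on the prior count and is no bound.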

How the results depend on the processing

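The CD40 groups of the fit over mice held 20 cells of each genotype. With pools as the unit they held 30 in the control pool and 27 and 22 in the B2m-null pools. Of 116 results on named genes, 31 passed with pools as the unit and 85 kept their direction without passing. The collagen, doublet and CD3-free alternatives were added after seeing the data. The cause of the changes was not tested.

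With pools as the unit, the numbers of genes called were 28 (CD40, control), 29 (CD40, B2m-null), 0 (genotype, isotype), 6 (genotype, CD40) and 0 (difference of CD40 effects). Without hashtag doublets they were 49, 57, 20, 19 and 15, and 58 of the 116 passed. With no filter on low counts they were 179, 183, 115, 76 and 96 in that order. For CD40 in control tumours 16 passed with a sum of at least 3 UMIs of Xcr1 and Clec9a, 24 in thinned cells and 30 without collagen-rich barcodes. For CD40 in B2m-null tumours 107 passed with RLE scaling, 108 with DESeq2, 29 with the C1q limit at 1, 23 in thinned cells and 5 with the 80% hashtag share. Between genotypes under isotype 40 passed with the C1q limit at 1, 10 with mitochondrial counts of at most 5% and 46 with the replicate block. Between genotypes under CD40 7 passed in thinned cells, 0 with the 80% hashtag share (edgeR, 548 at an unadjusted p under 0.05) and 8 without collagen-rich barcodes. For the difference 19 passed with the C1q limit at 1, 26 in thinned cells and 1 with the 80% hashtag share.

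Leaving out 1 replicate at a time gave 22 to 74 calls (CD40, control), 39 to 299 (CD40, B2m-null), 16 to 131 (genotype, isotype), 9 to 59 (genotype, CD40) and 21 to 153 (difference). For the share in B2m-null tumours the 80% hashtag share gave -1.40 percentage points (exact permutation p = 0.0794). The differences in share ranged from -2.20 to -1.55 and from -1.73 to -1.51 percentage points for CD40 in control and B2m-null tumours.

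Gbp4 for CD40 in control tumours turned to -1.34 with the sum of at least 3 and -1.59 without collagen-rich barcodes, and ran from -1.05 to 2.63 when 1 replicate was left out. Among the named genes for CD40 in B2m-null tumours, the 80% hashtag share turned Qpct (-0.37), Iigp1 (-0.39), Ldha (-0.083), H2-Ab1 (-0.19), H2-Eb1 (-0.25), Cd74 (-0.14) and Cenpf (0.91). Thinning turned Lmna (-0.36).

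Deviations of same-numbered groups had correlations of -0.020, -0.050 and 0.054. Each rests on differences between single pools, which held 27 and 22 cells in B2m-null CD40, so values near 0 cannot show whether the replicate numbers pair the samples. The replicate block, fitted without the control CD40 group, called 84 genes for CD40 in B2m-null tumours and 46 between genotypes under isotype, against 91 and 27 in the fit that left out that group without a block, and Plet1 no longer passed there. No value could be had for CD40 in control tumours without replicate 2 or its mouse 2, nor for CD40 in B2m-null tumours without replicate 2, with the sum of at least 3, with at most 5% mitochondrial counts or with at least 20 cells per mouse.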
